A study of Homo sapiens with 16 samples.

Results

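The 10 genes followed here belong to the retinoid pathway: the vitamin A importer STRA6, the retinol dehydrogenases RDH10 and RDH11, the retinal reductase DHRS3, the retinal dehydrogenase ALDH1A2, the retinoic acid receptors RARA, RARB and RARG, and the retinoid X receptors RXRA and RXRB. They are 10 of the 64252 genes in the count tables, and all 10 were matched by symbol. They were chosen by measured values of these libraries, namely STRA6 being higher with sh-SH2D1A in every comparison and ALDH1A2 being lower with it in 6T-CEM, together with their place in the pathway. The sh-SH2D1A to sh-NC differences of the 10 genes are therefore given as a description, without a p-value.

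The study sequenced RNA of Jurkat and 6T-CEM, 2 established human lines of T-cell acute lymphoblastic leukaemia, carrying an shRNA against SH2D1A (sh-SH2D1A) or a control shRNA (sh-NC). SH2D1A encodes SAP, a small adaptor protein of T and NK cells. The 8 groups were Jurkat sh-SH2D1A and sh-NC at day 8, Jurkat sh-SH2D1A and sh-NC at day 10, 6T-CEM sh-SH2D1A and sh-NC at day 5, and 6T-CEM sh-SH2D1A and sh-NC at day 10, with 2 libraries in each. The event from which days were counted, the vector, the shRNA sequences and whether 2 libraries of a group came from separate cultures are not stated in the labels. P-values here therefore cover the spread among these libraries alone, which may be technical.

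Cells take up retinol from its carrier in blood through STRA6 and oxidise it to retinal by RDH10 and related dehydrogenases, while DHRS3 turns retinal back into retinol. ALDH1A2 makes the irreversible step to retinoic acid, which binds RARA, RARB or RARG paired with an RXR on DNA repeats of a short hexamer and is broken down by CYP26 enzymes. STRA6, RARB, DHRS3 and CYP26A1 are known to be induced by retinoic acid in other cells, and ALDH1A2 is known in T-cell leukaemia as a gene switched on by the transcription factor TAL1.

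Receptor pairs are known to bind direct repeats of the hexamer, so the start sites of the genes that the results turn on are shown with the hexamers AGGTCA or GGGTCA and AGTTCA or GGTTCA, searched on both strands. RefSeq windows of 300 bases (250 before and 50 after each start, GRCh38.p14) were found for 9 of the 10 genes, 23 windows in all, 5 of them for STRA6, 2 for ALDH1A2 and 4 for RARB. RDH10 was the gene without one. The STRA6 window with most hexamers, both ALDH1A2 windows and the RARB window with the repeat are shown. The 4 windows below are written 5′ to 3′ on the strand of the gene. For STRA6 and ALDH1A2 the capitals mark each hexamer, read on either strand. For RARB they mark the direct repeat with 5 bases between its hexamers, beginning at position -53 from the start, the known retinoic acid response element of this gene.
STRA6 (chr15:74212210-74212509, minus strand): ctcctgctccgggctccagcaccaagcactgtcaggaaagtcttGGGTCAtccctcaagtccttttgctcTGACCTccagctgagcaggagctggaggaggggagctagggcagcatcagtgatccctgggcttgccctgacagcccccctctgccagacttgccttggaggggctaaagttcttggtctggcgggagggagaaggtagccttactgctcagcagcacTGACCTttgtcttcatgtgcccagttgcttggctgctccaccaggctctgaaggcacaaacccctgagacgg
ALDH1A2, first start (chr15:58065662-58065961, minus strand): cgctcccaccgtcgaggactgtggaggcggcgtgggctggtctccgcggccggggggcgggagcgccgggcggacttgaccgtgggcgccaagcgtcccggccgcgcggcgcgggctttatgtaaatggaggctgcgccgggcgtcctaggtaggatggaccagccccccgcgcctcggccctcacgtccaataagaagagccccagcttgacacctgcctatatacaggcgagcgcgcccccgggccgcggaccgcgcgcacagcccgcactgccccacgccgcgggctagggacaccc
ALDH1A2, second start (chr15:58013974-58014273, minus strand): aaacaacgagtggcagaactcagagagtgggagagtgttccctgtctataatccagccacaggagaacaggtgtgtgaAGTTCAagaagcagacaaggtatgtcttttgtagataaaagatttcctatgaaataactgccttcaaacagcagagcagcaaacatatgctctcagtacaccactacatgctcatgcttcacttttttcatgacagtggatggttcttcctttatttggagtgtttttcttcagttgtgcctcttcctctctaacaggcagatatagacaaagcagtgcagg
RARB (chr3:25428013-25428312, plus strand): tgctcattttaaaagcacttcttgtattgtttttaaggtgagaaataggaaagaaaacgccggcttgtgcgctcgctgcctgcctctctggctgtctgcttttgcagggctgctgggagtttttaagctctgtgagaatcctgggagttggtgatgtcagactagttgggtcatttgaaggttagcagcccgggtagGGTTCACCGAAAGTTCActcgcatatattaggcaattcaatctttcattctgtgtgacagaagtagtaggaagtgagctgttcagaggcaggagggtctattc

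The STRA6 window shown held 3 single hexamers at positions -206, -180 and -22 from the start, 1 of the other 4 STRA6 windows held 1, and the rest held none. Both ALDH1A2 windows lie within the span of the gene in GENCODE. That of the first start held none, and that of the second start held 1 at -172. A single hexamer lay in 10 of the 23 windows and in 38.6% of all 35116 promoter windows of the table. The repeat with 5 bases between hexamers lay in 1 of the 4 RARB windows, the one shown, and in no other of the 23, and in 31 of all windows (0.0883%). Repeats with 1 or 2 bases between hexamers were in none of the 23 windows, against 46 (0.131%) and 14 (0.0399%) of all windows. These matches describe letters in a window and say nothing of binding, and counts per gene do not tell which start was used.

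Libraries held between 27217899 and 33788024 counts. Levels are given as CPM, the library-size scaled count, with TMM scaling over the 16 libraries, on which 3 counts, the limit that a count of 0 allows, are worth 0.0902 to 0.113 CPM, covering counting error only. SH2D1A itself was at 30.4% of sh-NC with sh-SH2D1A in Jurkat at day 8 and 33.1% of it at day 10, and at 30.5% (day 5) and 50.1% (day 10) of sh-NC in 6T-CEM. These reductions passed edgeR's quasi-likelihood test with Benjamini-Hochberg adjustment (adjusted p = 3e-05, 6.3e-05, 0.00191 and 1.14e-05). All 12 T-cell markers were counted in every group, with summed levels of 2400 to 3160 CPM in Jurkat and 1800 to 2080 CPM in 6T-CEM. Summed levels over the 16 libraries were 16.5 to 74.9 CPM for 5 B-cell markers, mostly CD79A, 1.02 to 2.86 CPM for 5 myeloid markers and 1.11 to 5.72 CPM for 5 epithelial markers. For 5 markers of retinoid-storing stellate cells and fibroblasts the sum was 6.03 to 12.7 CPM. Of these, COL1A1 had 2.95 to 10.8 CPM, PDGFRB 1.11 to 3.55 CPM and DCN 0 to 0.452 CPM, with LRAT and COL1A2 at or below 0.0902 CPM. Some sums moved with the arm: the T-cell sum was 2400 to 2420 CPM with sh-SH2D1A and 2770 to 2840 CPM with sh-NC in Jurkat at day 8, and the B-cell sum was 27 to 30.3 CPM with sh-SH2D1A and 44.4 to 45.7 CPM with sh-NC in 6T-CEM at day 10. The stellate and fibroblast sum was 10.8 to 12.7 CPM with sh-SH2D1A and 8.75 to 10.3 CPM with sh-NC in Jurkat at day 8. In 6T-CEM at day 5 the myeloid sum was 2.55 to 2.86 CPM with sh-SH2D1A and 1.4 to 1.88 CPM with sh-NC, and the B-cell sum was 16.5 to 23 CPM with sh-SH2D1A and 24.9 to 31.9 CPM with sh-NC. Directions differed between comparisons. In 6T-CEM at day 10 the myeloid sum was 1.5 to 1.7 CPM with sh-SH2D1A and 2.02 to 2.42 CPM with sh-NC. The T-cell sum in 6T-CEM at day 5 was 1930 to 2080 CPM with sh-SH2D1A and 1840 to 1850 CPM with sh-NC. The part of these sums in the results below was not tested. The 2 sh-SH2D1A libraries of 6T-CEM at day 5 were the least alike of the 8 pairs: their chi-square over genes, divided by its degrees of freedom, was 24.3, where the other pairs had 4.79 to 9.89.

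Per kilobase of exon, the 10 genes spanned a wide range in control cells. ALDH1A2 had the highest level per length of the 10, at 93.3 ± 6.35 CPM per kb in Jurkat sh-NC and 34.8 ± 11.2 CPM per kb in 6T-CEM sh-NC (SD, n = 4 libraries over both days, here and in the next sentences). RDH11 followed with 21.6 ± 0.826 CPM per kb in Jurkat and 13.7 ± 1.71 CPM per kb in 6T-CEM. RDH10, RARA, RARG, RXRA, RXRB and DHRS3 lay between 1.98 and 3.75 CPM per kb in Jurkat and between 1.02 and 5.62 CPM per kb in 6T-CEM. STRA6 stood below them at 0.555 ± 0.0908 CPM per kb in Jurkat and 0.465 ± 0.109 CPM per kb in 6T-CEM. RARB was close to the detection floor, at 0.0533 ± 0.0279 CPM per kb in Jurkat and 0.062 ± 0.0526 CPM per kb in 6T-CEM. Among these 10 genes, 2 enzymes thus had most transcript per length, and the importer and RARB had least.

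**Figure D1:**
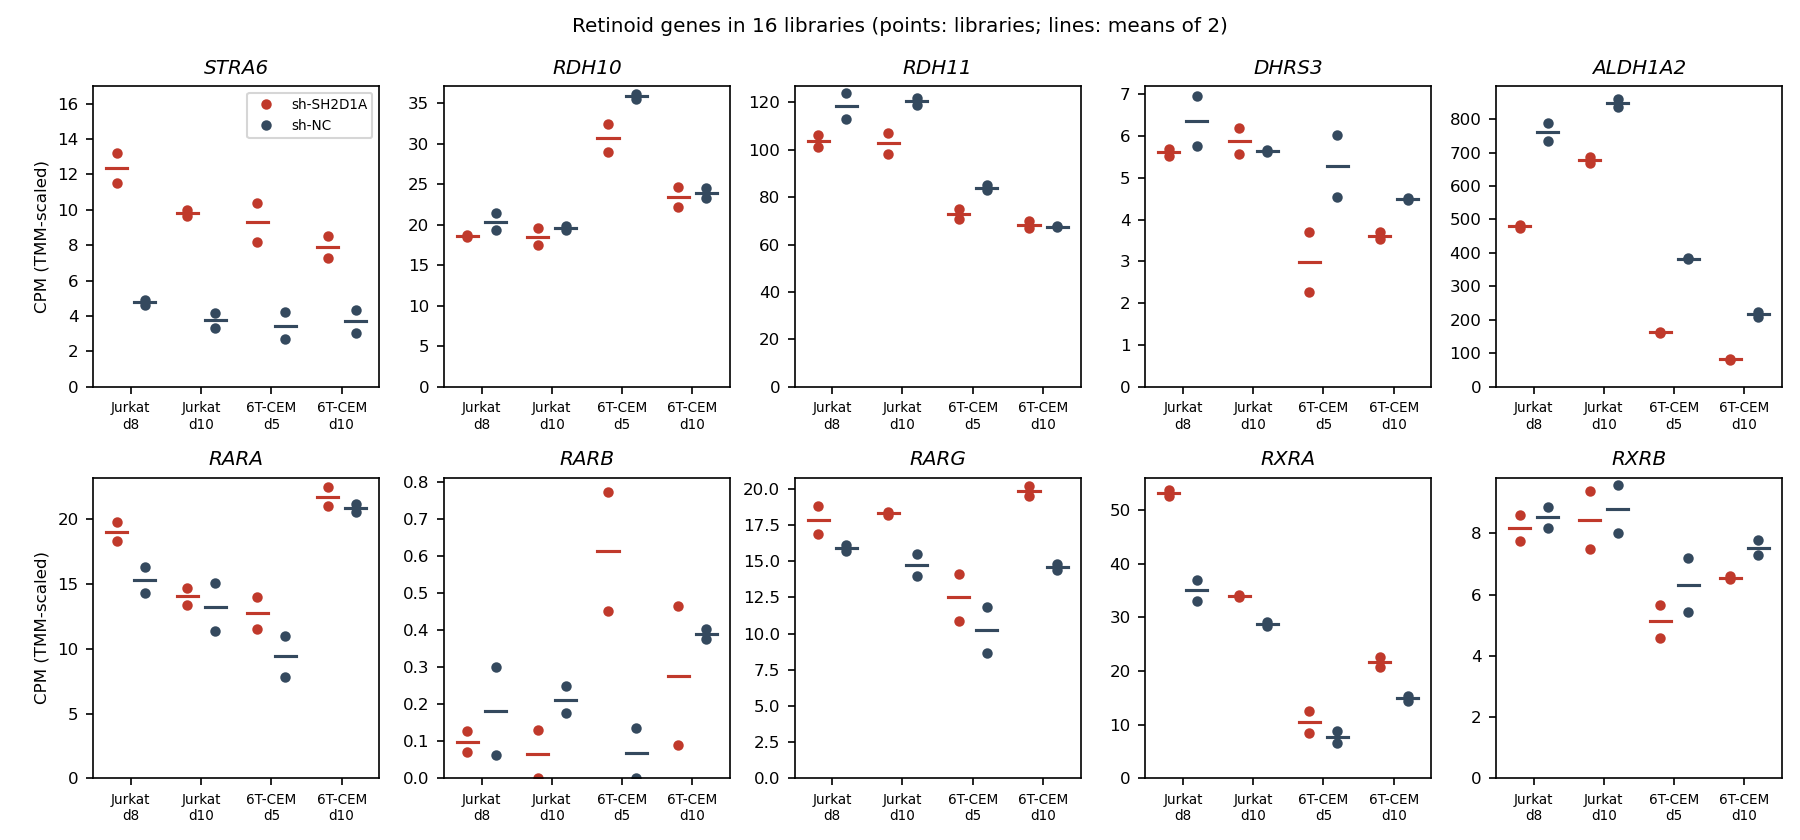
TMM-scaled CPM of the 10 genes in each of the 16 libraries (points) with the mean of each group of 2 (lines), by line and day, sh-SH2D1A left of sh-NC. STRA6 lies higher and ALDH1A2 lower with sh-SH2D1A in all 4 pairs of groups, and ALDH1A2 in 6T-CEM lies below its Jurkat levels.

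STRA6, the membrane receptor that imports retinol (chr15:74179466-74212267, minus strand, hg38), was higher with sh-SH2D1A in both lines and at every day. Jurkat at day 8 had 13.2 and 11.5 CPM with sh-SH2D1A, against 4.64 and 4.91 CPM with sh-NC. Jurkat at day 10 had 9.64 and 10 CPM with sh-SH2D1A, against 3.32 and 4.19 CPM with sh-NC. The lowest sh-SH2D1A library lay above the highest sh-NC library in each. For 6T-CEM at day 5 the levels were 10.4 and 8.18 CPM with sh-SH2D1A, against 2.69 and 4.21 CPM with sh-NC, and at day 10 they were 8.54 and 7.3 CPM with sh-SH2D1A, against 3.03 and 4.36 CPM with sh-NC. The log2 fold changes were 1.36 ± 0.16 (SE), 1.39 ± 0.20, 1.44 ± 0.30 and 1.10 ± 0.22 in the order given, or 2.58-, 2.62-, 2.72- and 2.14-fold. The 8 sh-SH2D1A libraries all lay above the 8 sh-NC libraries, whatever the line or day. Counts behind these values were 217 to 413 per sh-SH2D1A library and 79 to 163 per sh-NC library. Ordered by mean level, the 4 sh-SH2D1A groups came first, with Jurkat at day 8 set apart at 12.4 CPM and the other 3 between 7.92 and 9.83 CPM. Of the sh-NC groups Jurkat at day 8 again stood above the rest at 4.78 CPM, and the other 3, between 3.45 and 3.75 CPM, overlapped. CCDC33, which lies opposite STRA6 and shares 540 exonic bases with it, had 0 to 16 counts. How the counting treated strand is unknown here, so reads from overlapping genes on opposite strands cannot be told apart.

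ALDH1A2, the enzyme that makes retinoic acid from retinal (chr15:57953424-58497866, minus strand), was lower with sh-SH2D1A in all 4 comparisons, in Jurkat as well as in 6T-CEM. The 6T-CEM libraries of day 5 had 160 and 165 CPM with sh-SH2D1A, against 384 and 382 CPM with sh-NC. Those of day 10 had 83.5 and 81.6 CPM with sh-SH2D1A, against 210 and 223 CPM with sh-NC. The sh-SH2D1A level was 42.7% and 38.2% of the sh-NC level at these days, a log2 fold change of -1.23 ± 0.11 and -1.39 ± 0.04. Jurkat libraries of day 8 had 484 and 476 CPM with sh-SH2D1A, against 735 and 788 CPM with sh-NC. Those of day 10 had 670 and 687 CPM with sh-SH2D1A, against 835 and 860 CPM with sh-NC. There the sh-SH2D1A level was 62.7% and 80.2% of the sh-NC level, a log2 fold change of -0.67 ± 0.05 and -0.32 ± 0.07. At the one day that both lines share, day 10, the log2 fold changes were thus -0.32 in Jurkat and -1.39 in 6T-CEM. This difference belongs to the values that chose the gene and was not tested. No 2 of the 8 groups overlapped. Their means ran, from the top, 847 CPM in Jurkat day 10 sh-NC, 762 CPM in Jurkat day 8 sh-NC, 678 CPM in Jurkat day 10 sh-SH2D1A, 480 CPM in Jurkat day 8 sh-SH2D1A, 383 CPM in 6T-CEM day 5 sh-NC, 216 CPM in 6T-CEM day 10 sh-NC, 162 CPM in 6T-CEM day 5 sh-SH2D1A and 82.6 CPM in 6T-CEM day 10 sh-SH2D1A. In bulk RNA, fewer cells with the transcript and less transcript per cell cannot be told apart.

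Within each comparison, the other enzymes had smaller fold changes between the arms than ALDH1A2. RDH10 (chr8:73294612-73325281, plus strand), which oxidises retinol to retinal, had log2 fold changes of -0.13 ± 0.10 (day 8) and -0.08 ± 0.13 (day 10) in Jurkat, with -0.21 ± 0.15 (day 5) and -0.03 ± 0.09 (day 10) in 6T-CEM. Levels of RDH10 in 6T-CEM at day 5 were 29 and 32.5 CPM with sh-SH2D1A, against 36.2 and 35.5 CPM with sh-NC, without overlap, and at day 10 the arms overlapped. RDH11 (chr14:67676801-67695814, minus strand), a dehydrogenase that acts on retinol and retinal, had 106 and 101 CPM with sh-SH2D1A, against 113 and 124 CPM with sh-NC, in Jurkat at day 8. Its log2 fold changes were -0.20 ± 0.06 (day 8) and -0.22 ± 0.08 (day 10) in Jurkat, with -0.19 ± 0.12 (day 5) and 0.02 ± 0.05 (day 10) in 6T-CEM. The arms of RDH11 overlapped in 6T-CEM at day 10 and were apart, with sh-SH2D1A below, in the other 3. DHRS3 (chr1:12567910-12617731, minus strand), which reduces retinal to retinol, had 3.7 and 2.26 CPM with sh-SH2D1A, against 6.02 and 4.54 CPM with sh-NC, in 6T-CEM at day 5. Its log2 fold changes were -0.19 ± 0.18 (day 8) and 0.06 ± 0.19 (day 10) in Jurkat, with -0.81 ± 0.34 (day 5) and -0.31 ± 0.19 (day 10) in 6T-CEM. With replicate 1 of the sh-SH2D1A arm left out, the day 5 value of DHRS3 was -1.21.

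Of the RXR genes, whose products are the shared partners of the retinoic acid receptors, RXRA had fold changes above 0 in all 4 comparisons and RXRB had fold changes below 0. RXRA (chr9:134317098-134440585, plus strand) had 52.7 and 53.7 CPM with sh-SH2D1A, against 37 and 33 CPM with sh-NC, in Jurkat at day 8. In 6T-CEM at day 10 it had 22.6 and 20.8 CPM with sh-SH2D1A, against 14.5 and 15.3 CPM with sh-NC. The arms were apart in these 2 and in Jurkat at day 10, and they overlapped in 6T-CEM at day 5. Its log2 fold changes were 0.60 ± 0.08 (day 8) and 0.24 ± 0.10 (day 10) in Jurkat, with 0.46 ± 0.28 (day 5) and 0.55 ± 0.10 (day 10) in 6T-CEM. RXRB (chr6:33193588-33200688, minus strand) had log2 fold changes between -0.29 ± 0.28 and -0.06 ± 0.19. Its arms overlapped in 3 comparisons and were apart in 6T-CEM at day 10, with 6.5 and 6.61 CPM for sh-SH2D1A, against 7.3 and 7.78 CPM for sh-NC. SLC39A7 lies opposite RXRB, shares 244 exonic bases with it and had 246 to 767 counts.

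RARG (chr12:53210567-53232980, minus strand), a retinoic acid receptor, had 19.5 and 20.2 CPM with sh-SH2D1A, against 14.8 and 14.4 CPM with sh-NC, in 6T-CEM at day 10. Its log2 fold changes were 0.16 ± 0.11 (day 8) and 0.31 ± 0.14 (day 10) in Jurkat, with 0.30 ± 0.25 (day 5) and 0.44 ± 0.10 (day 10) in 6T-CEM, with overlap of the arms in 6T-CEM at day 5 alone. RARA (chr17:40309192-40357643, plus strand), the receptor gene fused to PML in promyelocytic leukaemia, had log2 fold changes of 0.31 ± 0.12 (day 8) and 0.08 ± 0.17 (day 10) in Jurkat, with 0.45 ± 0.25 (day 5) and 0.06 ± 0.09 (day 10) in 6T-CEM. Its arms were apart at the earlier day of each line and overlapped at day 10 in both. RARA-AS1, opposite RARA, shares 556 exonic bases with it and had 0 to 62 counts. In 6T-CEM at day 5, RARA, RARG, RXRA and DHRS3 were each lower in replicate 2 than in replicate 1 in both arms.

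RARB (chr3:25174332-25597932, plus strand), 1 of whose 4 RefSeq starts carries the repeat shown above, had too few counts for a fold change in Jurkat. Its counts there were 4 and 2 with sh-SH2D1A, against 2 and 10 with sh-NC, at day 8, and 4 and 0 with sh-SH2D1A, against 5 and 7 with sh-NC, at day 10. In 6T-CEM it had 23 and 12 counts with sh-SH2D1A, against 4 and 0 with sh-NC, at day 5, and 15 and 3 counts with sh-SH2D1A, against 12 and 12 with sh-NC, at day 10. The day 5 arms were apart and the day 10 arms overlapped. TOP2B, which lies opposite RARB and shares 28 exonic bases with it, had 6664 to 20374 counts, and its log2 fold changes were -0.91 and -0.67 for Jurkat (days 8 and 10), and -1.14 and -0.89 for 6T-CEM (days 5 and 10) (edgeR adjusted p = 0.000232, 0.00219, 0.00385 and 4.11e-06). TOP2B was named for its overlap with RARB, and the part of its reads in the RARB counts was not tested.

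**Figure D2:**
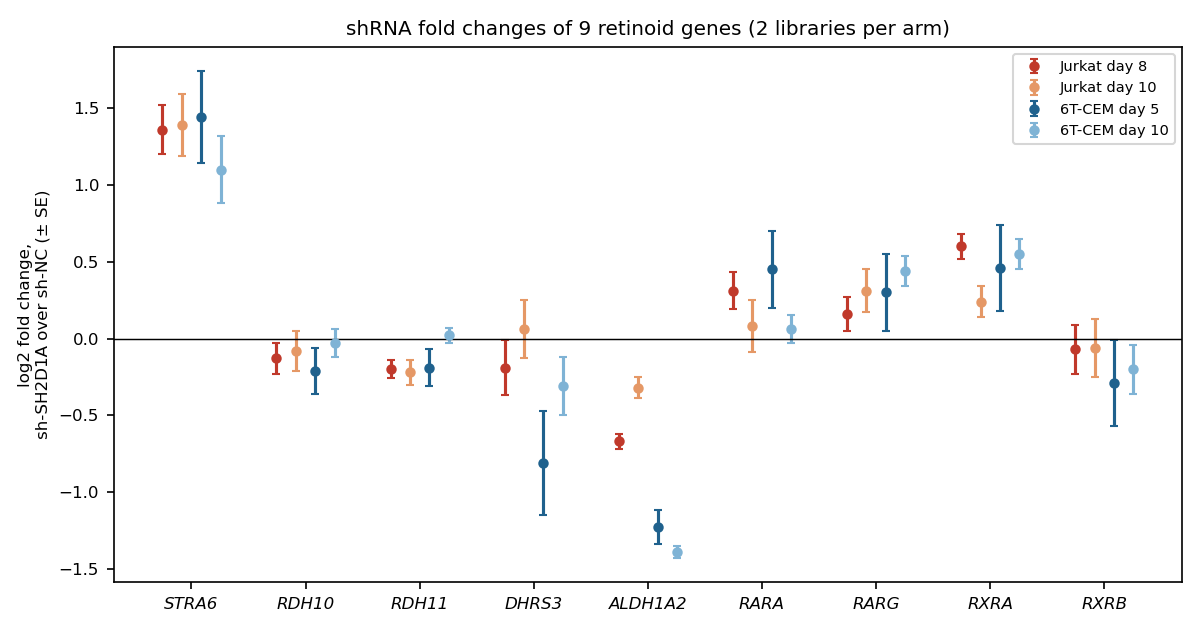
Log2 fold change of sh-SH2D1A over sh-NC (points) with its standard error (bars) for 9 of the 10 genes in the 4 comparisons, 2 libraries per arm. RARB is left out for its low counts. STRA6 lies between 1.10 and 1.44, ALDH1A2 between -1.39 and -0.32, and all values of RXRA and RARG are above 0.

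The following counts restate the contrast that chose the genes and are read neither for nor against the list. Called means an adjusted p under 0.05 in the edgeR test fitted to all genes of a table. In Jurkat at day 8, 3 of 9 genes tested were called, 2 higher and 1 lower with sh-SH2D1A, where 12.4% of all genes were called (5.23% higher and 7.13% lower). At day 10 in Jurkat it was 2 of 9, 1 in each direction, where 3.78% of all genes were called (1.26% higher and 2.52% lower). For 6T-CEM at day 5 it was 2 of 10, 1 in each direction, where 2.11% were called (0.606% higher and 1.51% lower), and in 6T-CEM at day 10 it was 4 of 10, 3 higher and 1 lower, where 14% were called (6.61% higher and 7.42% lower). RARB fell under the count filter in both Jurkat tables and passed it in both 6T-CEM tables. Arms that did not overlap were found for 8 of 9 genes in Jurkat at day 8, 4 with sh-SH2D1A above and 4 below, against 57.5% of all genes (29.1% above and 28.3% below). They were found for 5 of 9 in Jurkat at day 10, 3 above and 2 below, against 48.7% (24.2% above and 24.5% below). At day 5 in 6T-CEM it was 7 of 10, 3 above and 4 below, against 48.5% (23.3% above and 25.3% below), and at day 10 it was 6 of 10, 3 above and 3 below, against 56.8% (28.1% above and 28.7% below). STRA6 alone of the 9 genes tested in every table was above in all 4 and ALDH1A2 alone was below in all 4, as were 4.21% and 6.75% of 17521 genes.

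Differences between lines and days, taken over the mean of both arms, are not the contrast that chose the genes and were tested with edgeR on all 16 libraries. The mean of both arms does hold the sh-SH2D1A libraries, whose high STRA6 and, in 6T-CEM, low ALDH1A2 were part of the choice. STRA6 and ALDH1A2 are therefore described here from their sh-NC libraries, without a p-value. The counts of genes called below still include both, from the fit over both arms, and are not read as a result for them. Between the lines at day 10, Jurkat over 6T-CEM, 6 of the 10 genes were called, 4 higher and 2 lower in Jurkat, against 49.1% of all genes (24.3% higher and 24.8% lower). ALDH1A2 is among the 4 that were higher. Its sh-NC libraries had 835 and 860 CPM in Jurkat and 210 and 223 CPM in 6T-CEM, a ratio of 3.91, without overlap. RXRA was higher in Jurkat, at 28.4 to 34.2 CPM against 14.5 to 22.6 CPM in 6T-CEM, by 0.80 ± 0.11 on the log2 scale (edgeR adjusted p = 3e-05). RDH11 was higher in Jurkat by 0.71 ± 0.05 (edgeR adjusted p = 3.19e-08), with 98.3 to 122 CPM against 66.8 to 69.8 CPM in 6T-CEM. RARA, by contrast, was lower in Jurkat, at 11.4 to 15.1 CPM against 20.6 to 22.5 CPM in 6T-CEM, a log2 difference of -0.64 ± 0.12 (edgeR adjusted p = 0.000525), and RDH10 was lower too, with a log2 difference of -0.31 ± 0.08 (edgeR adjusted p = 0.00307). DHRS3 was higher in Jurkat by 0.52 ± 0.16 (edgeR adjusted p = 0.0164), and this call was lost without replicate 2 of 6T-CEM sh-NC (0.0594), replicate 1 of 6T-CEM sh-SH2D1A (0.0647) or replicate 2 of Jurkat sh-SH2D1A (0.0597). STRA6 had mean sh-NC levels of 3.75 CPM in Jurkat and 3.7 CPM in 6T-CEM, a ratio of 1.02, with overlap. RARG (-0.05 ± 0.11, edgeR adjusted p = 0.726), RXRB (0.29 ± 0.13, adjusted p = 0.0854) and RARB (adjusted p = 0.158) were not shown to differ between the lines. Summed marker levels at day 10 also differed. The B-cell list had 55.2 to 74.9 CPM in Jurkat and 27 to 45.7 CPM in 6T-CEM. The epithelial list had 1.54 to 1.88 CPM in Jurkat and 4.78 to 5.72 CPM in 6T-CEM. In it, EPCAM and KRT19 were at 0 in all 4 groups of day 10. Over the 16 libraries KRT8 had 1.02 to 5.37 CPM, KRT18 0 to 1.34 CPM and CDH1 0 to 0.124 CPM. The part of these marker levels in the line differences was not tested.

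In 6T-CEM, day 10 against day 5, the receptors that passed the test rose, and RDH10 and RDH11 fell. RXRA rose by 0.99 ± 0.12 on the log2 scale (edgeR adjusted p = 4.84e-06), with 14.5 to 22.6 CPM at day 10 and 6.58 to 12.5 CPM at day 5. RARA rose by 0.96 ± 0.12 (edgeR adjusted p = 1.28e-05), with 20.6 to 22.5 CPM at day 10 and 7.83 to 14 CPM at day 5, and RARG by 0.59 ± 0.11 (edgeR adjusted p = 0.000418). For ALDH1A2, the sh-NC libraries had 210 and 223 CPM at day 10 and 384 and 382 CPM at day 5, so that the day 10 level was 0.565 of the day 5 level. RDH10 fell to 22.2 to 24.7 CPM at day 10, against 29 to 36.2 CPM at day 5, a log2 difference of -0.49 ± 0.07 (edgeR adjusted p = 6.6e-05). RDH11 changed by -0.20 ± 0.05 (edgeR adjusted p = 0.0032), a call lost without replicate 1 of sh-SH2D1A at day 10 (0.0602). The mean sh-NC level of STRA6 was 3.7 CPM at day 10 and 3.45 CPM at day 5, a ratio of 1.07. DHRS3 (0.02 ± 0.16), RARB and RXRB (0.31 ± 0.14, edgeR adjusted p = 0.0733) were not called. RXRB was called without replicate 2 of sh-NC (0.029) or of sh-SH2D1A (0.0417) at day 5. In all, 3 of the 10 genes were called higher and 3 lower, ALDH1A2 among them, against 52.6% of all genes called (25.9% higher and 26.7% lower), so a call in this contrast was common.

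In Jurkat, day 10 against day 8, RXRA fell. Over both arms it had 31.4 ± 3.01 CPM at day 10 and 44.1 ± 10.6 CPM at day 8 (SD, n = 4 libraries each), a log2 difference of -0.46 ± 0.11 (edgeR adjusted p = 0.0109). With sh-SH2D1A its mean was 34 CPM at day 10 and 53.2 CPM at day 8, a ratio of 0.638. With sh-NC it was 28.8 and 35 CPM, a ratio of 0.822. The sh-NC libraries of ALDH1A2 had 835 and 860 CPM at day 10 and 735 and 788 CPM at day 8, a ratio of 1.11. In all, ALDH1A2 was called higher and RXRA lower, against 12.9% of all genes called (6.61% higher and 6.31% lower). The other 8 genes were not called. For STRA6 the mean sh-NC level was 3.75 CPM at day 10 and 4.78 CPM at day 8, a ratio of 0.786. Each line and day was deposited as a table of its own, so a day and whatever else set those libraries apart cannot be told apart.

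**Figure D3:**
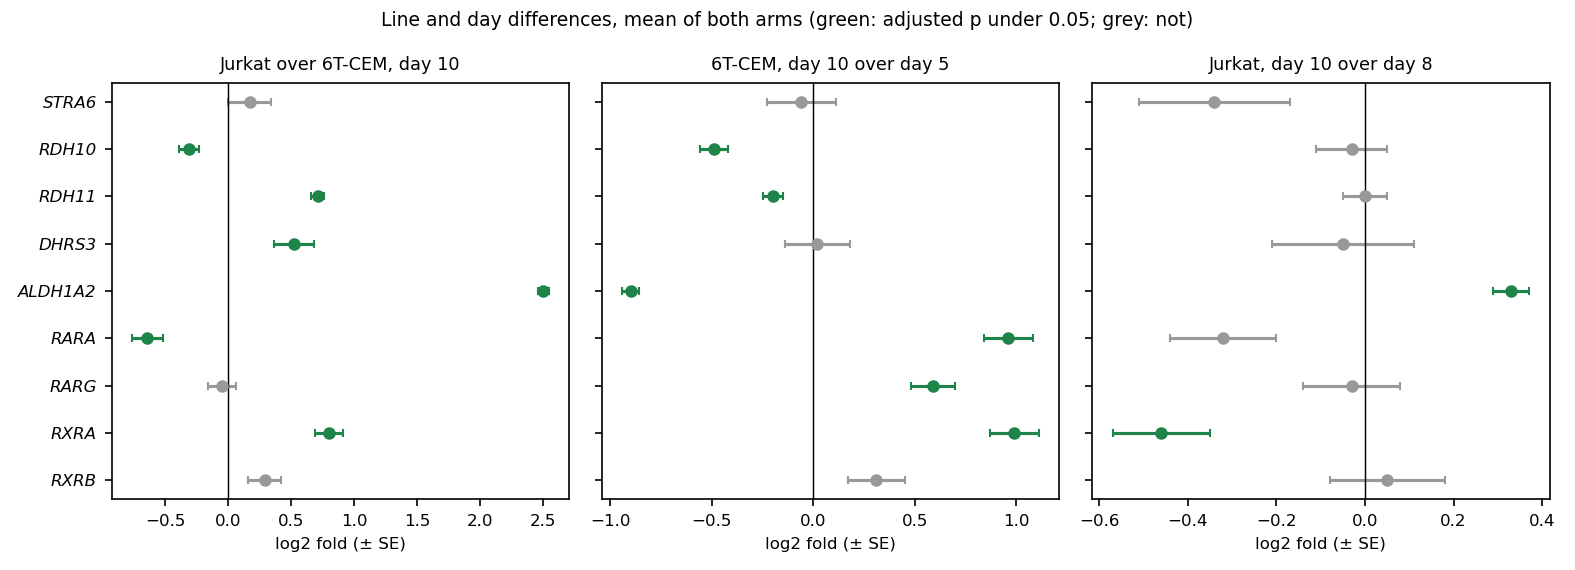
Log2 differences between lines and days over the mean of both arms (points) with standard errors (bars) for 9 of the 10 genes, each panel with its own horizontal scale. Green points passed an adjusted p under 0.05 in edgeR's test. STRA6 and ALDH1A2 are drawn over both arms like the rest, and their colour is not read as a result. RXRA is 0.80 higher in Jurkat than in 6T-CEM at day 10.

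The other genes of the pathway were 69 in 5 lists, of which 41 were tested in each Jurkat table and 43 in each 6T-CEM table. With sh-SH2D1A, 8 were higher and 6 lower in Jurkat at day 8, 1 higher and 1 lower in Jurkat at day 10, 0 higher and 3 lower in 6T-CEM at day 5, and 2 higher and 4 lower in 6T-CEM at day 10, by edgeR's test with adjustment over all genes. Of all genes tested in Jurkat, 12.4% were called at day 8 and 3.78% at day 10, and of all genes tested in 6T-CEM, 2.11% were called at day 5 and 14% at day 10. With 1 library left out at a time, the count of 14 in Jurkat at day 8 ranged between 3 and 15, the 2 at day 10 between 1 and 4, and the 3 in 6T-CEM at day 5 between 2 and 8. With the 5 lists pooled, the median log2 fold change lay between -0.07 and 0.02, against medians of all genes at 0.00. Single lists spread wider. The lowest median, -0.33, was that of the genes known as retinoic acid targets, both for 6T-CEM day 5 and for Jurkat day 8. The highest, 0.31, was that of the breakdown list for 6T-CEM day 5, with 2 genes tested. Among the 16 other oxidation and reduction genes, ALDH1A1, a second enzyme that makes retinoic acid, had 0 counts in all 8 Jurkat libraries and 2 to 21 in 6T-CEM, and ALDH1A3, the third, had 0 to 3 in any library. RXRG, the third RXR gene, and the binding proteins RBP4 and CRABP1 had 0 counts in all 16 libraries. These 5 were named after their values were seen.

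Of the genes known as retinoic acid targets, 17 in the list, 11 were tested in each Jurkat table and 12 in each 6T-CEM table, and the calls were 2 higher and 4 lower in Jurkat at day 8, 0 higher and 1 lower in that line at day 10, and 0 higher and 3 lower at each day of 6T-CEM. Over all genes in Jurkat, 5.23% were called higher and 7.13% lower at day 8, and 1.26% higher and 2.52% lower at day 10. Over all genes in 6T-CEM, the shares were 0.606% higher and 1.51% lower at day 5, and 6.61% higher and 7.42% lower at day 10. The 4 genes described next are those of lowest adjusted p in the list, and the 2 called higher in Jurkat at day 8 are not among them. CD38, a surface enzyme that consumes NAD and is induced by retinoic acid in myeloid cells, was lower with sh-SH2D1A in all 4 comparisons. It had 14.9 and 17.3 CPM with sh-SH2D1A, against 36.4 and 34.5 CPM with sh-NC, in 6T-CEM at day 10. In Jurkat at day 8 it had 16.4 and 21.5 CPM with sh-SH2D1A, against 48.1 and 52.7 CPM with sh-NC. The log2 fold changes of CD38 were -1.42 ± 0.12, -0.98 ± 0.10, -1.31 ± 0.14 and -1.14 ± 0.10 in Jurkat (days 8 and 10) and 6T-CEM (days 5 and 10), with edgeR adjusted p = 0.000999, 0.000778, 0.00385 and 0.000203. The call in Jurkat at day 10 was lost with no filter on low counts (0.177). CEBPE, a transcription factor of granulocyte maturation, had 8.88 and 8.54 CPM with sh-SH2D1A, against 39.5 and 37.8 CPM with sh-NC, in 6T-CEM at day 10, a log2 fold change of -2.15 ± 0.09 (edgeR adjusted p = 7.68e-06). CEBPE also fell in 6T-CEM at day 5 and in Jurkat at day 8, with log2 fold changes of -1.53 ± 0.19 and -0.73 ± 0.07 (edgeR adjusted p = 0.0061 and 0.00126), and had a log2 fold change of -0.24 ± 0.11 in Jurkat at day 10 (adjusted p = 0.269). ITGA4, the integrin subunit alpha 4, which with a beta subunit binds vessel wall ligands, had 133 and 134 CPM with sh-SH2D1A, against 299 and 299 CPM with sh-NC, in 6T-CEM at day 10. Its log2 fold changes were -1.16 ± 0.03 there, -0.81 ± 0.12 in 6T-CEM at day 5, -0.34 ± 0.06 in Jurkat at day 8 and -0.09 ± 0.08 in Jurkat at day 10 (edgeR adjusted p = 1.15e-06, 0.0125, 0.0097 and 0.592). The call of ITGA4 in 6T-CEM at day 5 was lost without replicate 2 of sh-NC (0.121) and that in Jurkat at day 8 without either sh-SH2D1A library (0.0642 and 0.104). BTG2, an antiproliferative gene, was lower in Jurkat at day 8, with a log2 fold change of -0.76 ± 0.16 (edgeR adjusted p = 0.0227), a call lost without either sh-SH2D1A library (0.0732 and 0.124) or replicate 2 of sh-NC (0.0654), and with no filter on low counts (0.0878).

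The shRNA effect at day 10 differed between the lines for 2 of the 43 other genes tested, ITGA4 and CEBPE, against 0.812% of all genes (0.517% with a higher and 0.295% with a lower effect in Jurkat). Jurkat minus 6T-CEM, the difference of the log2 fold changes was 1.07 ± 0.11 for ITGA4 (edgeR adjusted p = 0.000221) and 1.91 ± 0.17 for CEBPE (edgeR adjusted p = 5.71e-05). For CD38 it was 0.16 ± 0.18 (edgeR adjusted p = 0.869).

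The enzymes that break retinoic acid down showed no call between the arms. CYP26B1 had 32.1 and 32.1 CPM with sh-SH2D1A, against 31 and 32.5 CPM with sh-NC, in 6T-CEM at day 10, and its lowest edgeR adjusted p in the 4 comparisons was 0.382. Elsewhere its sh-SH2D1A libraries lay below both sh-NC libraries. Jurkat had 61.7 and 59.9 CPM, against 64.3 and 64.3 CPM, at day 8. At day 10 Jurkat had 63.8 and 60 CPM, against 71.9 and 66.5 CPM. For 6T-CEM at day 5 the levels were 29.5 and 23.3 CPM, against 31.1 and 30.2 CPM. Of all genes in these comparisons, 28.3%, 24.5% and 25.3% lay below in this way. CYP26A1, the better known retinoic acid target, had 18 to 98 counts over the 16 libraries and a lowest edgeR adjusted p of 0.229. Over both arms, CYP26B1 was higher in Jurkat than in 6T-CEM at day 10 by 1.04 ± 0.07 on the log2 scale (edgeR adjusted p = 1.71e-08), and CYP26A1 was higher at day 10 than at day 5 in 6T-CEM by 1.26 ± 0.25 (edgeR adjusted p = 0.000597).

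Among RXRG and the coregulators, 15 of 16 were tested in every table, and 5 rose and 1 fell in Jurkat at day 8, 1 rose in Jurkat at day 10 and 1 rose in 6T-CEM at day 10, and edgeR made no other call in the list. The shares of all genes called higher in these 3 tables were 5.23%, 1.26% and 6.61%, and the 6 calls in Jurkat at day 8 are part of the 14 given above, a count as low as 3 with 1 library left out. TBL1X, a corepressor subunit, rose in 3 comparisons, with 38.1 and 37.8 CPM for sh-SH2D1A, against 28.5 and 27.4 CPM for sh-NC, in 6T-CEM at day 10. Its log2 fold changes were 0.50 ± 0.08 (day 8) and 0.45 ± 0.10 (day 10) in Jurkat, with 0.34 ± 0.17 (day 5) and 0.44 ± 0.07 (day 10) in 6T-CEM (edgeR adjusted p = 0.00912, 0.0325, 0.343 and 0.00435). The call of TBL1X in Jurkat at day 8 was lost without replicate 1 of sh-SH2D1A (0.0523), and that at day 10 without either sh-NC library (0.0797 and 0.0569) or replicate 2 of sh-SH2D1A (0.169), and with no filter on low counts (0.268). The acetyltransferase CREBBP (0.38 ± 0.06) and the zinc finger cofactor ZNF423 (1.43 ± 0.34) rose in Jurkat at day 8 (edgeR adjusted p = 0.0081 and 0.0337). In Jurkat at day 10 CREBBP was lower with sh-SH2D1A, at 92.3 and 100 CPM against 108 and 106 CPM with sh-NC, without a call. In 6T-CEM it was higher with sh-SH2D1A, also without a call. It had 128 and 125 CPM, against 108 and 108 CPM, at day 5, and 131 and 141 CPM, against 121 and 130 CPM, at day 10. The day 8 calls of CREBBP and ZNF423 were both lost without replicate 2 of sh-SH2D1A. ZNF423 was also lost without replicate 1 of sh-SH2D1A (0.115) or replicate 2 of sh-NC (0.0753), and with no filter (0.105).

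Of the 17 uptake, binding and storage genes, 6 were tested in every table. FABP5, a fatty acid binding protein that can carry retinoic acid, was higher with sh-SH2D1A in Jurkat at day 8 (0.29 ± 0.06, edgeR adjusted p = 0.0206) and lower in 6T-CEM at day 10 (-0.20 ± 0.05, edgeR adjusted p = 0.035). DGAT1, which can esterify retinol, was higher in 6T-CEM at day 10 (0.24 ± 0.05, edgeR adjusted p = 0.0175). These 3 calls were each lost when 1 of 2 particular libraries was left out: either sh-SH2D1A library for FABP5 in Jurkat (0.129 and 0.108), replicate 2 of either arm for FABP5 in 6T-CEM (0.112 and 0.2), and replicate 1 of either arm for DGAT1 (0.0598 and 0.102). They were also lost with no filter on low counts (0.06 and 0.14 for FABP5, 0.0819 for DGAT1) and with all 16 libraries in the fit (0.056 and 0.254 for FABP5, 0.299 for DGAT1). SCARB1, a carotenoid and lipid uptake receptor, and CRABP2, which carries retinoic acid to the nucleus, were not called in any comparison, with lowest adjusted p of 0.313 and 0.622. Among the oxidation and reduction genes, RETSAT, which saturates retinol, was lower in Jurkat at day 8 (-0.41 ± 0.09, edgeR adjusted p = 0.0223), a call lost without either sh-SH2D1A library (0.0945 and 0.129) or replicate 2 of sh-NC (0.0534), with no filter on low counts (0.0761) and with all 16 libraries in the fit (0.0929). RDH13, RDH14 and ALDH8A1 were not called, with lowest adjusted p of 0.0731, 0.172 and 0.198.

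**Figure D4:**
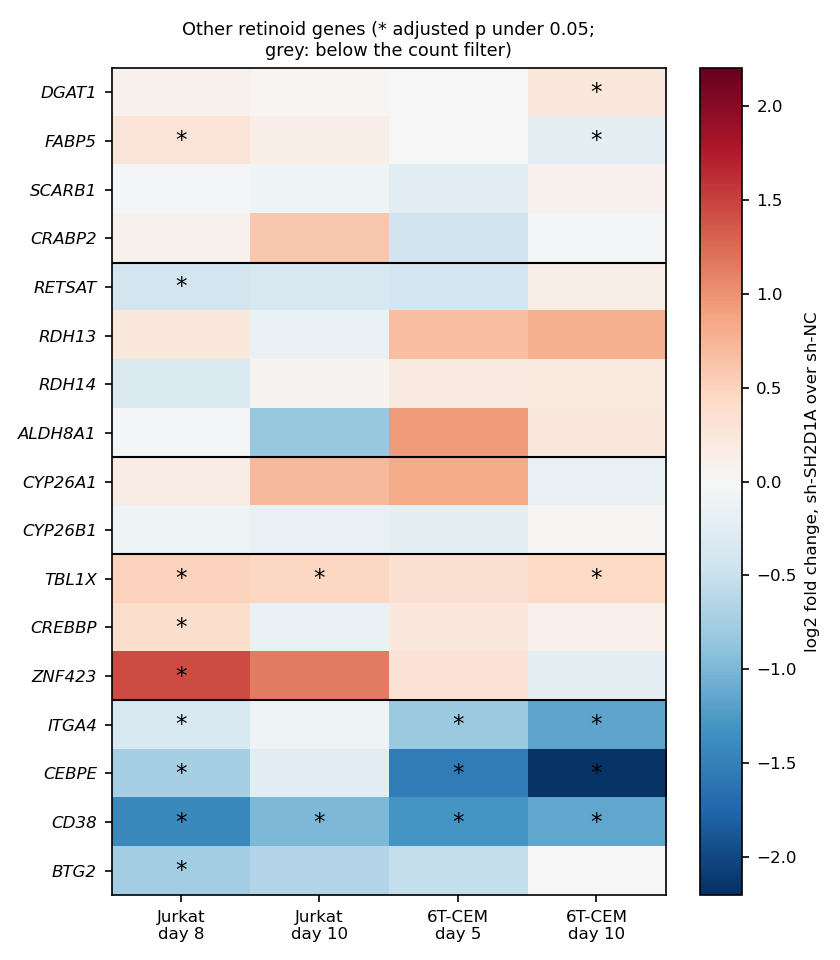
Log2 fold change of sh-SH2D1A over sh-NC, as colour, for 17 other retinoid genes (rows, lines between the 5 lists) in the 4 comparisons (columns), with an asterisk where edgeR's adjusted p was under 0.05. CD38 is called lower in all 4 columns, and the deepest blue is CEBPE in 6T-CEM at day 10 (-2.15).

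Among the genes whose levels ran most like those of ALDH1A2 over the 16 libraries were TFAP2A, ITGA4, TSHR and LAIR1. Likeness was the root mean square difference of log2 CPM after each gene was centred on its own mean, over 13793 genes with a symbol and a mean of at least 1 CPM, and the libraries share line, day and shRNA. It was 0.226 for the transcription factor gene TFAP2A, 0.231 for ITGA4, 0.268 for the thyrotropin receptor gene TSHR and 0.284 for the inhibitory receptor gene LAIR1, against a median of 1.17 over all genes compared. Likeness was taken over both arms, so fold changes like those of ALDH1A2 or STRA6 follow in part from how the near genes were found. They are given as a description. The log2 fold changes in 6T-CEM at day 10 were -1.56 for TFAP2A, -1.16 for ITGA4, -0.50 for TSHR and -1.04 for LAIR1, beside -1.39 for ALDH1A2. Near genes of STRA6 were less alike, with GPNMB at 0.359, ZNF8-DT at 0.367, DYNLRB1 at 0.392 and RBM33-DT at 0.396, against a median of 0.797. GPNMB, a transmembrane glycoprotein gene, had log2 fold changes of 1.24, 0.91, 1.63 and 0.26 where STRA6 had 1.36, 1.39, 1.44 and 1.10.

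**Figure D5:**
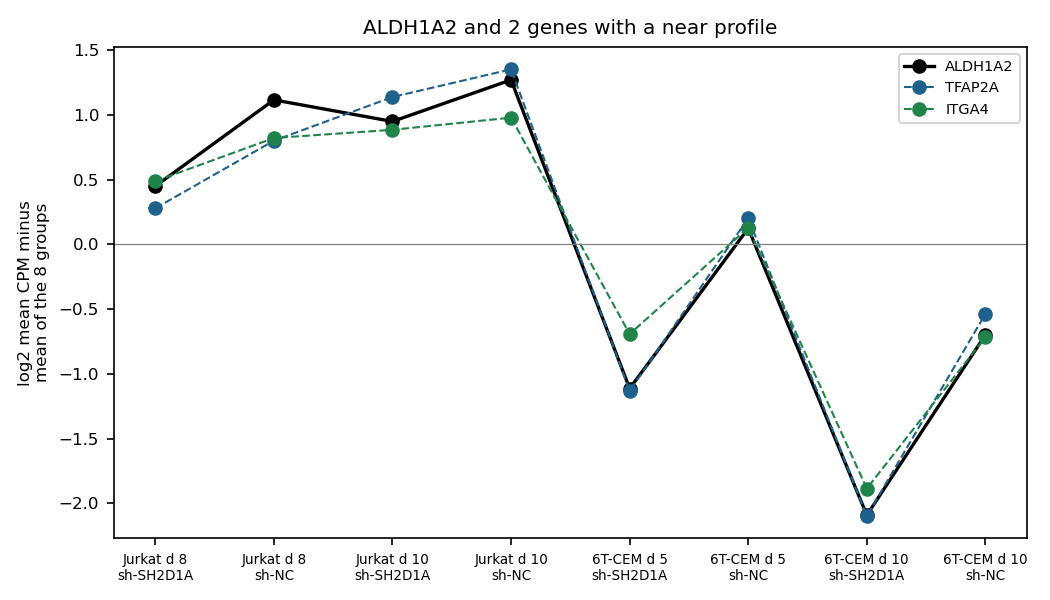
Log2 mean CPM of ALDH1A2, TFAP2A and ITGA4 in the 8 groups, each gene centred on its mean of the 8 groups, sh-SH2D1A left of sh-NC at each line and day. All 3 curves are lowest in 6T-CEM day 10 sh-SH2D1A, where ALDH1A2 averaged 82.6 CPM. TFAP2A and ITGA4 were picked for their likeness to ALDH1A2 over these same libraries.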

How the data were processed

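The 4 tables deposited by the authors, 1 for each line and day, hold whole-number counts per Ensembl gene that had not been normalised. HISAT2 2.2.0, StringTie and hg38 are named, per the submitters' processing notes. Which step counted, with what annotation and strand setting, is not given in the sources used here. The labels' protocols give TRIzol total RNA, TruSeq libraries and a NovaSeq6000. The tables share 64252 identifiers. A symbol was found for 40995, and GENCODE 29, the source of positions and exon lengths, holds 56591.

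Every table of 4 libraries was fitted by edgeR 4.0.16 (R 4.3.3) after filterByExpr (minimum count 10) and TMM scaling. Its two-sided quasi-likelihood F-test was adjusted by Benjamini-Hochberg over all genes tested, with calls at adjusted p under 0.05. Standard errors were obtained by dividing the absolute log2 fold change by the square root of F. A joint fit of the 16 libraries, with a mean for each of 8 groups, gave line and day contrasts over both arms and the difference of shRNA effects. Alternatives were DESeq2 1.42.0, its size factors, no count filter, a replicate block and leaving out each library. Tested on simulated data, the per-table fits made false calls at more than the nominal share and missed many of the known changes, so a call near the threshold is weak and a missing call shows little.

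The members and lists were chosen with earlier results of these data known. The rule for named genes took the members, SH2D1A, up to 4 genes of each other list with the lowest adjusted p, and the 5 nearest profiles to STRA6 and ALDH1A2. A few genes that the rule names are not reported here. Promoter windows come from RefSeq. No library was left out.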

Additional observations from a re-analysis of the deposited data

Results flagged for a closer look

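The effect of sh-SH2D1A at day 10 differed between the lines for 2 of the other retinoid genes, by the test of the difference itself. For ITGA4 the log2 fold change was 1.07 higher in Jurkat than in 6T-CEM (SE 0.11, edgeR adjusted p = 0.000221). ITGA4 had 859 and 954 CPM with sh-SH2D1A, against 937 and 999 CPM with sh-NC, in Jurkat, and 133 and 134 CPM with sh-SH2D1A, against 299 and 299 CPM with sh-NC, in 6T-CEM. For CEBPE it was 1.91 higher in Jurkat (SE 0.17, edgeR adjusted p = 5.71e-05). CEBPE had 73.5 and 65.4 CPM with sh-SH2D1A, against 89.6 and 74.6 CPM with sh-NC, in Jurkat, and 8.88 and 8.54 CPM with sh-SH2D1A, against 39.5 and 37.8 CPM with sh-NC, in 6T-CEM. The share of SH2D1A remaining at day 10 was 33.1% in Jurkat and 50.1% in 6T-CEM, and its part in these differences was not tested.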

How the results depend on the processing

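The counts of genes and of other retinoid genes called between the arms moved with the settings, and the cause was not tested. In Jurkat at day 8, 2381 genes were called, 873 with no filter on low counts and 1323 with all 16 libraries in the fit, and of the other retinoid genes 14 were called, 5 with no filter. In Jurkat at day 10, 721 genes and 2 other retinoid genes were called by edgeR, 0 and 0 with no filter (where 3533 genes and 10 of the list had an unadjusted p under 0.05), 1052 and 4 with DESeq2, and 1423 and 5 with a replicate block. In 6T-CEM at day 5, 412 genes and 3 of the list were called, 1118 genes with DESeq2, 2188 and 5 with a replicate block, and 3108 and 6 with all 16 libraries. In 6T-CEM at day 10, 2752 genes were called, 1099 with no filter and 916 with all 16 libraries. Leaving out 1 library at a time gave 633 to 2978 genes and 3 to 15 of the list in Jurkat at day 8, 557 to 979 and 1 to 4 in Jurkat at day 10, 298 to 2865 and 2 to 8 in 6T-CEM at day 5, and 2004 to 2225 and 5 to 6 in 6T-CEM at day 10. It gave 1664 to 2146 genes for day 10 against day 8 in Jurkat, where all libraries gave 2847. The lone library of an arm was then assumed to vary like the other groups.

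Equal replicate numbers deviated together by correlations of 0.0436, 0.026, 0.0227 and 0.0207 in the 4 tables. These low values do not settle whether libraries of equal number were prepared together, which is not known here. A replicate block gave 1797 genes called in Jurkat at day 8 and 1423 at day 10, with 2188 in 6T-CEM at day 5 and 2796 at day 10. Of 190 shRNA fold changes of the members under other settings, 177 moved by less than the spread between replicates and 13 by more. Among the 13, STRA6 without replicate 2 of sh-NC had a log2 fold change of 1.56 in Jurkat and 1.39 in 6T-CEM at day 10. With all libraries these were 1.39 and 1.10. The fold change of RARB in 6T-CEM at day 5, 3.07 with all libraries, was 7.11 without replicate 1 of sh-NC and 2.15 without replicate 2. At day 10 it was -0.49 with all libraries and -2.06 without replicate 1 of sh-SH2D1A. Of 359 line and day values of the members, 353 kept their direction and side of the threshold, 4 lost a call and 2 gained one. Of 637 values of the other named genes, 590 did, 37 lost a call and 10 gained one. Depth limits RARB, with at most 23 counts in a library.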
